A study of Mus musculus with 14 samples.

Results

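The 10 genes described here belong to the integrated stress response of the mouse heart: the transcription factors Atf4, Atf5 and Ddit3, the ATF4 targets Trib3, Asns, Chac1 and Mthfd2, the secreted factors Gdf15 and Fgf21, and Eif4ebp1, which encodes the translation inhibitor 4E-BP1. They were taken by name from a table of 24972 genes. Of these 10 genes, 9 were listed as members of the ATF4 pathway, with earlier results of these data known. The remaining gene, Eif4ebp1, was chosen by measured values, the difference between its overload responses under the viral vectors in these libraries, so its values are a description and were given no test.

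In the integrated stress response, stress-sensing kinases phosphorylate the initiation factor eIF2alpha, which slows general protein synthesis while the ATF4 mRNA is translated more. ATF4 then binds, with partners, at short elements in the promoters of genes for amino acid synthesis, amino acid transport and stress signalling. ATF4 protein is set largely by translation, so an mRNA level of Atf4 does not give the protein level. In the heart the response is known from mitochondrial disease and from overload, and circulating GDF15 is a marker of heart failure in humans.

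Polyadenylated RNA of ventricles was sequenced. The donors, male C57BL/6N mice, underwent transverse aortic constriction (TAC), which loads the left ventricle with pressure, or sham surgery, at 9 to 10 weeks of age. At 2 weeks after surgery, 30 TAC mice with an ejection fraction of 40 to 60% and 10 sham mice were chosen, and tail-vein injection gave 1e12 viral genomes of AAV2/9 in 100 ul. The vector carried JP2NT, the N-terminal fragment of the dyad protein junctophilin-2, or GFP as control, and hearts were taken 8 weeks after surgery. The groups were TAC+NT (JP2NT vector, 4 libraries), TAC+GFP (4), Sham+NT (JP2NT vector, 3) and Sham+GFP (3). Every group received AAV2/9, and the promoter that drove the vector gene is not given in the sources used here.

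Depth was about 8650195 to 14460869 gene-assigned reads per library, an estimate that takes the commonest low value as 1 read. Sham+NT replicates 1 and 2 were nearly as close as counting noise allows and were counted as 1 sample, so 13 samples entered the tests and Sham+NT had n = 2. TAC+NT replicate 4 stood apart: on the first principal component it lay at -5.58, against 20.2 to 24.1 in the other TAC+NT samples, 32.2 to 42.9 in TAC+GFP, -42.1 to -41.2 in Sham+NT and -40.8 to -38.9 in Sham+GFP. The labels do not say whether the libraries came from separate mice, and the p-values measure the spread between these samples only. All 8 cardiomyocyte markers were present in every group. Their summed value was 677290 to 889800 in TAC+NT, 602770 to 715760 in TAC+GFP, 1084500 to 1100700 in Sham+NT and 1094400 to 1127000 in Sham+GFP, and the summed value of 6 fibroblast markers was 11409 to 14185, 11585 to 16132, 9957 to 10406 and 9028 to 9696 in the same groups. The summed value of 5 erythroid markers was 18759, 17991, 7859 and 11703 in TAC+NT replicates 1 to 4, 15960 to 22189 in TAC+GFP, 8635 to 9870 in Sham+NT and 6872 to 8488 in Sham+GFP. Of the 4 erythroid markers tested, 3 were higher in TAC+GFP against Sham+GFP and 1 in TAC+NT against Sham+NT. Of all tested genes, 23.3% and 16.1% were higher in these comparisons. The marker Hbb-bs was at 0 in every sample of TAC+NT, TAC+GFP and Sham+GFP. The part of these shifts in the results below was not tested. In whole ventricle a change in the number of cells of a type and a change in marker RNA per cell cannot be told apart. Jph2, the gene of full-length junctophilin-2, averaged 6327 ± 313 in TAC+NT (SD, n = 4), 6141 ± 332 in TAC+GFP (n = 4), 6997 ± 206 in Sham+NT (n = 2) and 7910 ± 261 in Sham+GFP (n = 3). TAC+NT and TAC+GFP differed in Jph2 by a log2 difference of 0.04 (limma adjusted p = 0.715), and whether reads of the vector were counted in Jph2 is not given in the sources used here.

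ATF4 acts through an element whose core was written here as TGATGNAA and searched on both strands of RefSeq promoters of build GRCm38.p6, each 250 bases before to 50 after a start site. Promoters matched 9 of the 10 genes by symbol, with 11 promoters among them, and 4 held the core, those of Trib3, Asns, Chac1 and Fgf21. The core occurred in 3.97% of all 32851 promoters. The 4 matches are shown because they are the letters that ATF4 is known to recognise, each in a window of 60 bases read on the strand of its gene, with the core in capitals. In Asns the core reads forward, and in the others it lies on the opposite strand and so appears as its reverse complement.
Trib3 (chr2:152344013-152344072, minus strand): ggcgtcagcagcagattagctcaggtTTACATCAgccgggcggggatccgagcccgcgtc
Asns (chr6:7693199-7693258, minus strand): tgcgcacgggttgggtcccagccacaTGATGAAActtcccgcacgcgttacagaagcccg
Chac1 (chr2:119351023-119351082, plus strand): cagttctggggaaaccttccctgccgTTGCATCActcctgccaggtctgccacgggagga
Fgf21 (chr7:45615596-45615655, minus strand): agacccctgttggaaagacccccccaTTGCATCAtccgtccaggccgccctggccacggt
These windows are descriptions of the letters, not of binding. The cyclic AMP element TGACGTCA, searched in the same way, was in none of the 11 promoters and in 1.79% of all promoters. Counted from the RefSeq start site, the capitals begin at position 15 in Trib3, after the start, and at -23 in Asns, -193 in Chac1 and -139 in Fgf21, before it.

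Among the 8 ATF4 pathway genes abundant enough to test, 3 were higher in TAC+GFP than in Sham+GFP and none was lower: Gdf15, Atf4 and Mthfd2. In that comparison 48.1% of the 13212 tested genes were called, 23.3% as higher and 24.8% as lower. Between TAC+NT and Sham+NT, 4 of the 8 were higher and none was lower, the same 3 and Asns, beside 31.9% of all tested genes called, 16.1% as higher and 15.8% as lower. The members were chosen with earlier results of these data known, so the counts and medians of the 8 are descriptions. All 5 sham samples of Gdf15 lay under the filter minimum of 10, so it entered the test through its TAC samples and had to differ. Without Gdf15, 2 of 7 were higher in TAC+GFP and 3 of 7 in TAC+NT, each against sham, with medians of 0.31 and 0.30. Without TAC+NT replicate 4, the sample that stood apart, 4 of the 8 were again called in TAC+NT against Sham+NT. The median log2 difference of the 8 genes was 0.37 in TAC+GFP against Sham+GFP and 0.44 in TAC+NT against Sham+NT, where the medians over all tested genes were -0.01 and 0.00. A gene was called at a limma p-value, adjusted by Benjamini-Hochberg over all tested genes, under 0.05. Samples of TAC+GFP lay above those of Sham+GFP without overlap for 4 of the 8 genes and below them for 0, where 25.3% and 27.8% of all tested genes did so. TAC+NT lay above Sham+NT without overlap for 5 and below for 0, beside 24.5% and 25.2% of all tested genes. Both counts of genes lying above include Gdf15, which had to differ. Values are the authors' scaled gene counts, rescaled over all libraries so that a group can be set against another, and a difference is on the log2(value + 1) scale.

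**Figure D1:**
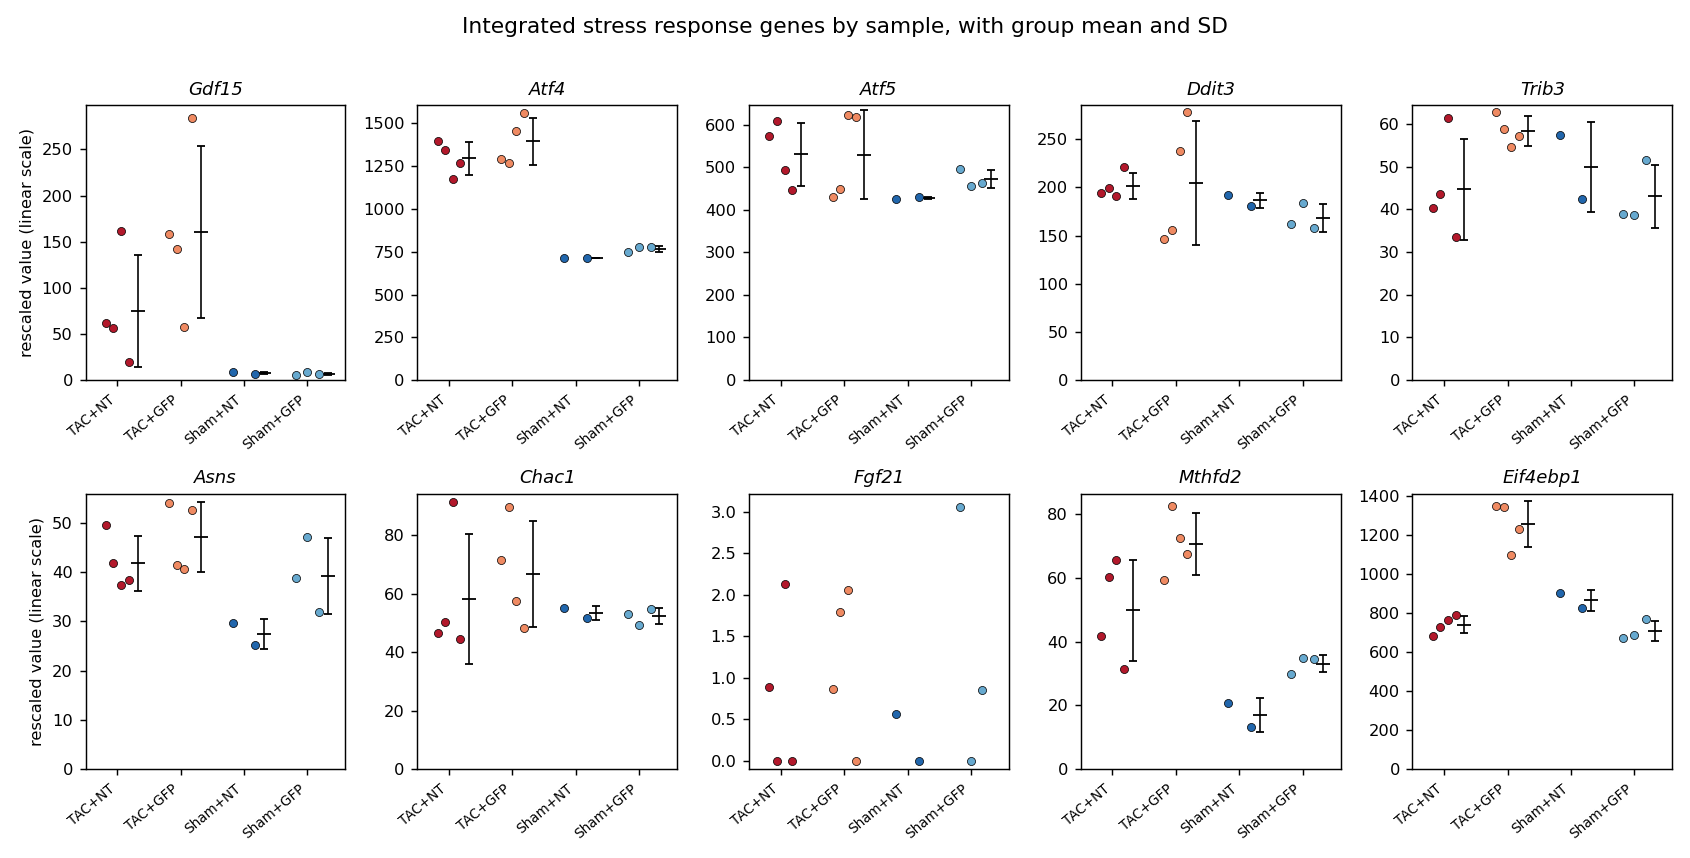
Rescaled values (linear scale) of the 10 genes in each sample, with TAC+NT, TAC+GFP, Sham+NT and Sham+GFP from left to right; points are samples in order of replicate, and the bar gives the group mean and SD, left out for Fgf21, which rests on a few reads. Atf4, Gdf15 and Mthfd2 lie higher in TAC than in sham samples of the same vector, and Eif4ebp1 lies at 1096 to 1348 in TAC+GFP, above every other sample.

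Atf4 (chr15:80255184-80257541, plus strand, build GRCm38, the same sequence as mm10), the factor that carries the response, was higher in overload under both vectors, by 1.81-fold under each. It stood at 1396, 1346, 1176 and 1268 in TAC+NT and at 1293, 1271, 1455 and 1563 in TAC+GFP, against 714 and 715 in Sham+NT and 747, 775 and 778 in Sham+GFP. All 8 TAC samples lay above all 5 sham samples, and the TAC groups overlapped. The log2 difference was 0.86 in TAC+GFP against Sham+GFP (95% interval 0.69 to 1.03, limma adjusted p = 1.72e-06), or 1.81-fold. In TAC+NT against Sham+NT it was 0.86 (0.66 to 1.05, limma adjusted p = 3.54e-05), also 1.81-fold. The interaction, that is the overload difference under JP2NT minus that under GFP, was 0.00 with an interval from -0.26 to 0.25. TAC+NT differed from TAC+GFP by -0.10 (-0.26 to 0.05, limma adjusted p = 0.442).

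Atf5 and Ddit3, the other transcription factors, did not pass the test in either overload comparison. Atf5 (chr7:44812256-44816658, minus strand), a factor related to ATF4 that is linked to mitochondrial stress, stood at 573, 608, 494 and 446 in TAC+NT and 430, 449, 622 and 619 in TAC+GFP, against 425 and 430 in Sham+NT and 496, 456 and 463 in Sham+GFP. TAC+GFP split into a low and a high pair, and the low pair lay below all Sham+GFP samples. TAC+NT samples all lay above Sham+NT samples, with a log2 difference of 0.30 (limma adjusted p = 0.152). Ddit3 (chr10:127290774-127296288, plus strand) encodes CHOP, a factor of prolonged stress. It stood at 194, 199, 191 and 221 in TAC+NT and 147, 155, 238 and 278 in TAC+GFP, against 192 and 181 in Sham+NT and 162, 184 and 158 in Sham+GFP. The same TAC+GFP samples, replicates 1 and 2, were low and replicates 3 and 4 high for both genes. Atf5 shares 82 exonic bases with genes on the opposite strand and Ddit3 shares 68 with Mars. Whether the authors' counting used strand is not given in the sources used here, so these levels may hold reads of the neighbours.

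Of the metabolic targets, Mthfd2 was higher in overload under both vectors and Asns passed the test under JP2NT. Mthfd2 (chr6:83305691-83325908, minus strand), a mitochondrial enzyme of one-carbon metabolism, stood at 41.8, 60.2, 65.7 and 31.5 in TAC+NT and 59.4, 82.7, 72.6 and 67.7 in TAC+GFP, against 20.9 and 13.3 in Sham+NT and 30.0, 34.9 and 34.4 in Sham+GFP. Under each vector the TAC samples lay above the sham samples without overlap. The log2 difference was 1.06 in TAC+GFP against Sham+GFP (0.55 to 1.58, limma adjusted p = 0.00223, 2.09-fold) and 1.47 in TAC+NT against Sham+NT (0.88 to 2.05, limma adjusted p = 0.00139, 2.77-fold). Both Sham+NT samples were lower than every Sham+GFP sample, by 0.95 on the log2 scale, with an interval of the difference from -1.56 to -0.33. That difference had a limma p of 0.00516 and an adjusted p of 0.998. TAC+NT differed from TAC+GFP by -0.54 (-1.02 to -0.07, limma adjusted p = 0.162), and those groups overlapped.

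Asns (chr6:7675169-7693254, minus strand), which makes asparagine and is a standard ATF4 target, stood at 49.7, 41.8, 37.4 and 38.4 in TAC+NT and 54.1, 41.4, 40.7 and 52.6 in TAC+GFP, against 29.6 and 25.2 in Sham+NT and 38.8, 47.2 and 31.8 in Sham+GFP. The Sham+NT samples were the lowest of all 13, and TAC+GFP overlapped Sham+GFP. The log2 difference was 0.59 in TAC+NT against Sham+NT (0.13 to 1.04, limma adjusted p = 0.0466, 1.5-fold), a call that held in 13 of 26 alternative settings, with adjusted p from 0.0261 to 0.287. Against Sham+GFP, TAC+GFP differed by 0.26 (-0.14 to 0.66, limma adjusted p = 0.260). Whether the overload responses of Asns differed between vectors was tested by the interaction, 0.32 with an interval from -0.28 to 0.93.

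Chac1 and Trib3, targets of ATF4 together with CHOP, did not pass the test in any comparison. Chac1 (chr2:119351229-119354381, plus strand), an enzyme that breaks down glutathione, stood at 46.4, 50.5, 91.3 and 44.5 in TAC+NT and 71.5, 89.9, 57.4 and 48.4 in TAC+GFP, against 55.2 and 51.7 in Sham+NT and 53.1, 49.5 and 54.9 in Sham+GFP. The TAC samples spread on both sides of the narrow sham range. Trib3 (chr2:152337422-152344032, minus strand), a pseudokinase that dampens the response, stood at 40.3, 43.5, 61.4 and 33.6 in TAC+NT and 62.8, 58.9, 54.5 and 57.2 in TAC+GFP, against 57.4 and 42.4 in Sham+NT and 38.9, 38.7 and 51.6 in Sham+GFP. TAC+GFP lay above Sham+GFP without overlap, and TAC+NT overlapped every other group. The log2 difference of Trib3 was 0.44 in TAC+GFP against Sham+GFP (0.02 to 0.87, limma adjusted p = 0.0802) and -0.17 in TAC+NT against Sham+NT (-0.65 to 0.31, limma adjusted p = 0.593). Its interaction was -0.61 (-1.26 to 0.03, limma adjusted p = 0.457). The promoter cores shown above lie in the Asns, Chac1, Trib3 and Fgf21 promoters. Atf4, Atf5, Ddit3, Gdf15 and Mthfd2 had none in the windows searched. Whether a core goes with the calls was not tested.

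Gdf15 (chr8:70629393-70632456, minus strand) encodes a cytokine of the transforming growth factor beta superfamily that acts on the brainstem to lower food intake. It stood at 62.3, 56.8, 161.3 and 19.6 in TAC+NT and at 158.2, 142.2, 57.8 and 283.7 in TAC+GFP, against 8.67 and 6.75 in Sham+NT and 5.2, 8.2 and 6.18 in Sham+GFP. All TAC samples lay above all sham samples, while the TAC groups overlapped through TAC+NT replicate 3 and TAC+GFP replicate 3. The sham levels rested on about 2.9 to 12.1 reads per library. Sham+NT replicates 1 and 2, averaged into the sample at 8.67, stood at 3.57 and 13.8. All sham samples as entered in the tests lay under 10, so the gene passed the filter on low values only through the TAC samples, where it is high. The log2 difference was 4.23 in TAC+GFP against Sham+GFP (3.04 to 5.43, limma adjusted p = 3.17e-05, 18.8-fold), with an adjusted p of 5.79e-05 when no filter was applied. In TAC+NT against Sham+NT it was 2.77 (1.42 to 4.12, limma adjusted p = 0.00478, 6.83-fold). Without Sham+NT replicate 3, which leaves Sham+NT at 1 sample, that difference was 2.59. The interaction of -1.46 (-3.26 to 0.34, limma adjusted p = 0.541) did not pass the test.

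None of the 8 genes was called between TAC+NT and TAC+GFP by limma, where 6.15% of all tested genes were called, 2.75% as higher and 3.4% as lower. For none of the 8 were the TAC groups free of overlap, where TAC+NT lay above TAC+GFP in 5.25% and below it in 5.41% of all tested genes. At an unadjusted p under 0.05 there were 3, Gdf15, Mthfd2 and Trib3, all lower in TAC+NT, with a lowest adjusted p of 0.162. Over all tested genes 22.4% were under that unadjusted p. The median log2 difference of the 8 was -0.20, against 0.00 over all tested genes. Gdf15 differed by -1.24 (-2.34 to -0.14, limma adjusted p = 0.166). Single libraries moved this value without changing its sign. It was -1.73 (limma adjusted p = 0.0378) without TAC+NT replicate 3, and -0.74 (limma adjusted p = 0.349) without TAC+NT replicate 4. Over the 26 alternatives the adjusted p ranged from 0.0378 to 0.367, and it passed the threshold in 1. Within TAC+NT, replicate 3 was the highest sample for Gdf15, Trib3, Chac1 and Mthfd2, and replicate 4 was the lowest for the same genes. The other members did not share this order. Replicate 3 was the lowest for Atf4, Ddit3 and Asns, and replicate 4 was the highest for Ddit3 and the lowest for Atf5. The summed cardiomyocyte markers were lowest in replicate 3 and highest in replicate 4. Across TAC+NT replicates 1 to 4, the summed value of 8 macrophage markers, none of them at 0, was 6579, 6480, 4717 and 3454. It was 4694 to 5841 in TAC+GFP, 4315 to 4514 in Sham+NT and 4531 to 4764 in Sham+GFP. The part of either marker list in the Gdf15 values was not tested.

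**Figure D2:**
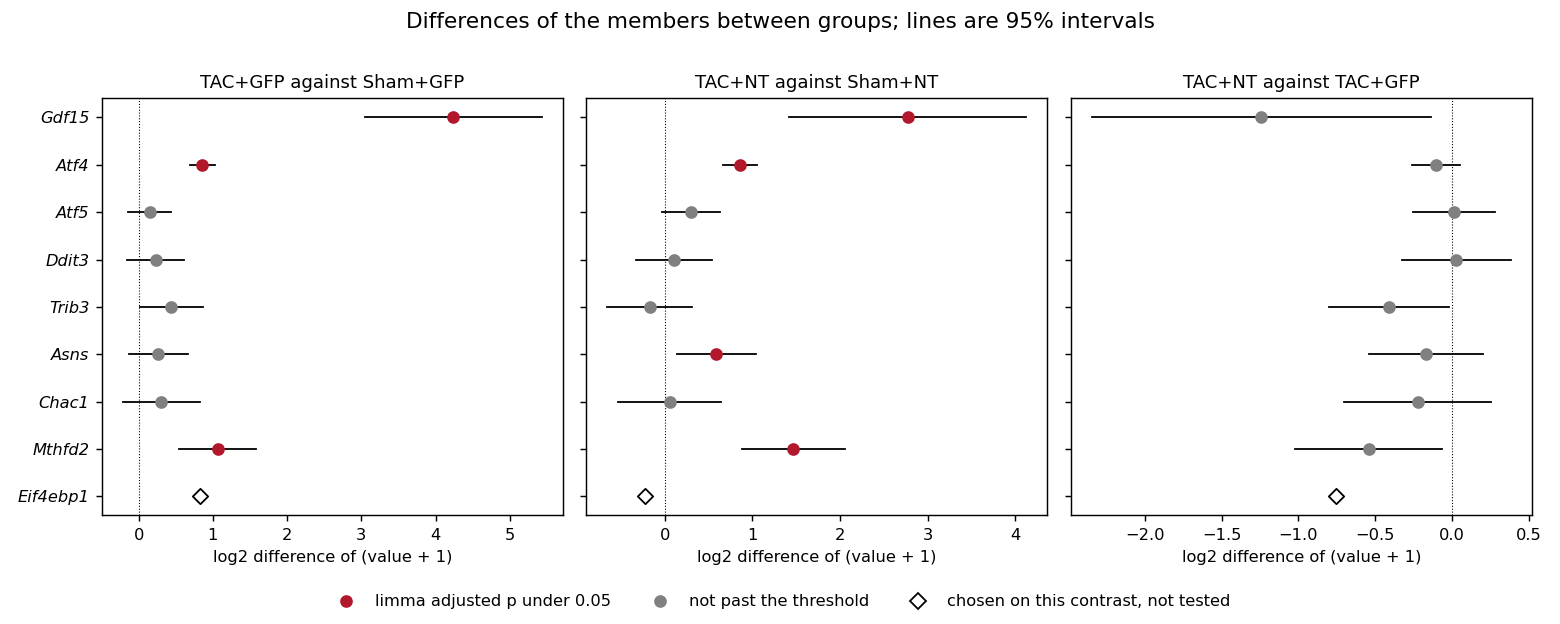
Log2 differences of the members abundant enough to test, in 3 comparisons, on the log2(value + 1) scale, with 95% intervals from limma for the 8 tested pathway genes; Eif4ebp1 is drawn as a point without an interval because it was chosen for its pattern. The intervals of Atf4, Mthfd2 and Gdf15 lie above 0 in both overload comparisons. Gdf15 passed the filter on low values only through its TAC samples.

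Between Sham+NT and Sham+GFP, limma called none of the 8 genes and none (0%) of all tested genes. Sham+NT lay below Sham+GFP without overlap for 4 of the 8, Atf4, Atf5, Asns and Mthfd2, and above it for 0, where 17.7% and 12.5% of all tested genes did so. At an unadjusted p under 0.05 there were 2 of the 8, Mthfd2 and Asns, both lower in Sham+NT, where 581 of all tested genes (4.4%) were. The interaction called none of the 8, with none at an unadjusted p under 0.05, against 0.0757% of all tested genes called (0.0378% in each direction) and 1505 (11.4%) at an unadjusted p under 0.05. The comparisons share samples with one another, so their values are given side by side and were not set against each other.

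Fgf21 (chr7:45613886-45615490, minus strand), a metabolic hormone made mainly by the liver, was near the limit of detection. It was above 0 in 8 of 14 libraries and at 0 in 6, and its highest value was 3.06, about 3 reads, in a Sham+GFP library. The values were 0.892, 0, 2.13 and 0 in TAC+NT, 0.868, 1.80, 2.05 and 0 in TAC+GFP, 0.567 and 0 in Sham+NT, and 3.06, 0 and 0.852 in Sham+GFP. It failed the filter of at least 10 in at least 3 samples, and no difference was detectable at this depth. Gfral, the GDF15 receptor of the brainstem, was listed at 0 in all 14 libraries, and Klb, the coreceptor for FGF21, was above 0 in 1 of 14.

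Eif4ebp1 (chr8:27260329-27276674, plus strand) encodes 4E-BP1, which binds the cap-binding protein eIF4E and holds back translation until mTORC1 phosphorylates it. ATF4 is known to raise its mRNA in mouse pancreatic beta cells. Its values were 683, 726, 764 and 788 in TAC+NT and 1348, 1341, 1096 and 1228 in TAC+GFP, against 903 and 827 in Sham+NT and 669, 686 and 767 in Sham+GFP. TAC+GFP was highest without overlap, Sham+NT came next and also overlapped no other group, and TAC+NT and Sham+GFP overlapped. Means were 740 ± 45.6 in TAC+NT (SD, n = 4), 1253 ± 118 in TAC+GFP (n = 4), 865 ± 53.4 in Sham+NT (n = 2) and 707 ± 52.5 in Sham+GFP (n = 3).

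Described as differences, with no test because the gene was picked for this pattern, Eif4ebp1 was 0.82 higher on the log2 scale in TAC+GFP than in Sham+GFP, or 1.77-fold. It was lower in TAC+NT than in Sham+NT by a log2 difference of -0.23, and the log2 difference of TAC+NT against TAC+GFP was -0.76. Sham+NT lay above Sham+GFP by 0.29. The overload difference under JP2NT minus that under GFP was -1.05.

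**Figure D3:**
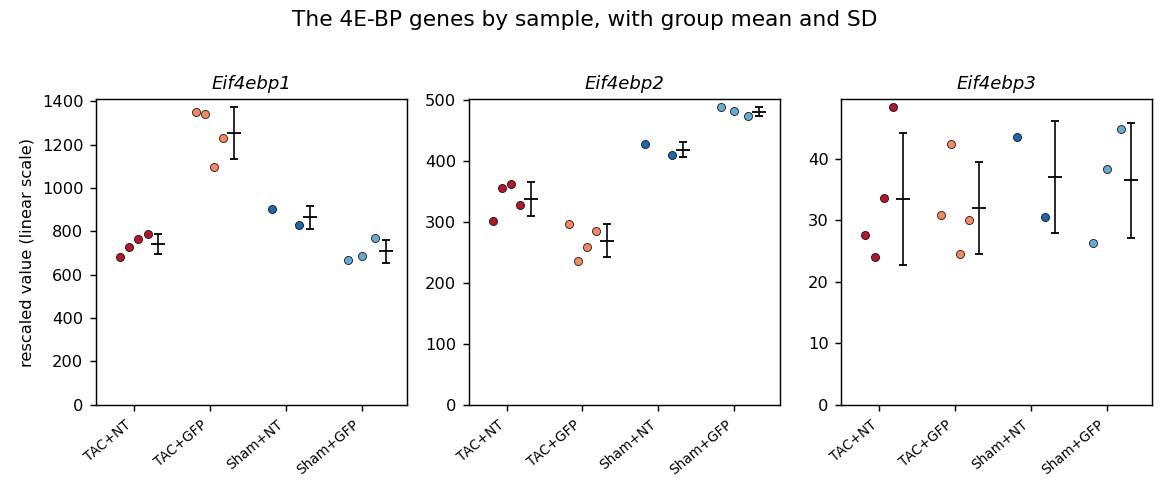
Rescaled values (linear scale from 0) of Eif4ebp1, Eif4ebp2 and Eif4ebp3 in each sample, with TAC+NT, TAC+GFP, Sham+NT and Sham+GFP from left to right; points are samples and bars give the group mean and SD. Eif4ebp1 is highest in TAC+GFP (1253 ± 118), where Eif4ebp2 is lowest (269 ± 27.2).

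The paralog Eif4ebp2 (chr10:61428491-61452661, minus strand), which encodes 4E-BP2, was lower in overload under both vectors. It stood at 302, 356, 362 and 328 in TAC+NT and 297, 236, 258 and 285 in TAC+GFP, against 427 and 410.0 in Sham+NT and 488, 482 and 473 in Sham+GFP. No groups overlapped, and their order was Sham+GFP, Sham+NT, TAC+NT and TAC+GFP from high to low. It was lower in TAC+GFP than in Sham+GFP by a log2 difference of -0.84 (-1.03 to -0.65, limma adjusted p = 5.73e-06) and lower in TAC+NT than in Sham+NT, with a difference of -0.32 (limma adjusted p = 0.0296). TAC+NT was higher than TAC+GFP by 0.33 (0.15 to 0.50, limma adjusted p = 0.0338), a call that held in 13 of 26 alternatives with adjusted p from 0.0279 to 0.119. The interaction was 0.52 (0.23 to 0.82, limma adjusted p = 0.157). Eif4ebp3 averaged 33.4 ± 10.7 in TAC+NT, 31.9 ± 7.51 in TAC+GFP, 37.0 ± 9.14 in Sham+NT and 36.5 ± 9.40 in Sham+GFP (SD, n = 4, 4, 2 and 3), and all groups overlapped. Its exons share 501 bases with another gene on the same strand, so its level is uncertain.

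The genes whose pattern over the 13 samples was most like that of Eif4ebp1 were Msto1, Itgb5, Retreg1, Tmbim1 and Slc2a1, by the root mean square difference of centred log2 values among 13211 genes, from 0.142 for Msto1 to 0.157 for Slc2a1. Slc2a1, the glucose transporter GLUT1, averaged 234 ± 8.51 in TAC+NT and 455 ± 119 in TAC+GFP, against 304 ± 5.75 in Sham+NT and 248 ± 16.2 in Sham+GFP (SD, n = 4, 4, 2 and 3). TAC+GFP had the highest mean for all 5 genes, and Sham+NT came second for 3 of them, Msto1, Retreg1 and Slc2a1, while TAC+NT came second for Itgb5 and Tmbim1. The likeness itself fixes most of this order, since the genes were found by it. For Gdf15 the nearest were Serpinb1c, Dio2, Ltbp2, Nppa and Thbs4, from 0.516 to 0.669. Dio2, which activates thyroid hormone, averaged 126 ± 51.0 in TAC+NT and 273 ± 32.4 in TAC+GFP, against 16.1 ± 3.44 in Sham+NT and 14.7 ± 1.91 in Sham+GFP. Nppa, the atrial natriuretic peptide gene, averaged 28941 ± 10330 in TAC+NT and 81015 ± 29010 in TAC+GFP, against 7712 ± 1500 in Sham+NT and 5328 ± 1262 in Sham+GFP.

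Around these members, 112 other genes of the response were followed in 9 lists, and 107 were abundant enough to test. Of the 107, 25 were higher and 36 lower in TAC+GFP against Sham+GFP, and 23 were higher and 30 lower in TAC+NT against Sham+NT, with medians of -0.09 and -0.08 on the log2 scale. That is 23.4% higher and 33.6% lower in TAC+GFP against Sham+GFP, beside 23.3% and 24.8% of all tested genes, and 21.5% higher and 28% lower in TAC+NT against Sham+NT, beside 16.1% and 15.8%. TAC+NT against TAC+GFP had 3 higher and 8 lower, or 2.8% and 7.48%, beside 2.75% and 3.4% of all tested genes. The counts of single lists below stand beside these same shares of all tested genes, and nothing particular to a list was tested. The lists were chosen with earlier results of these data known. Without TAC+NT replicate 4, TAC+NT against Sham+NT had 24 higher and 35 lower, and without TAC+NT replicate 2 it had 16 higher and 27 lower. Leaving out Sham+NT replicate 3 leaves Sham+NT at 1 sample, so no count is given for it. The count between the TAC groups changed with single libraries, to 5 higher and 11 lower without TAC+NT replicate 3, to 1 higher and 4 lower without TAC+GFP replicate 1, and to 1 higher and 3 lower without TAC+GFP replicate 2. It was 4 higher and 7 lower without TAC+NT replicate 4. With the values as deposited, scaled apart in the vector sets, it became 1 higher and 20 lower. The count also changed with the model. It was 0 higher and 3 lower with only the groups compared, and 0 higher and 2 lower with the closest TAC pairs averaged. With a spread per group it was 1 higher and 5 lower, as it was with limma without a trend. In the sham comparison and the interaction limma called 0 of the 107, with unadjusted p under 0.05 for 12 (11.2%) and 17 (15.9%) of them, beside 4.4% and 11.4% of all tested genes. In the alternative settings the interaction called 0 to 5 of the 107.

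**Figure D4:**
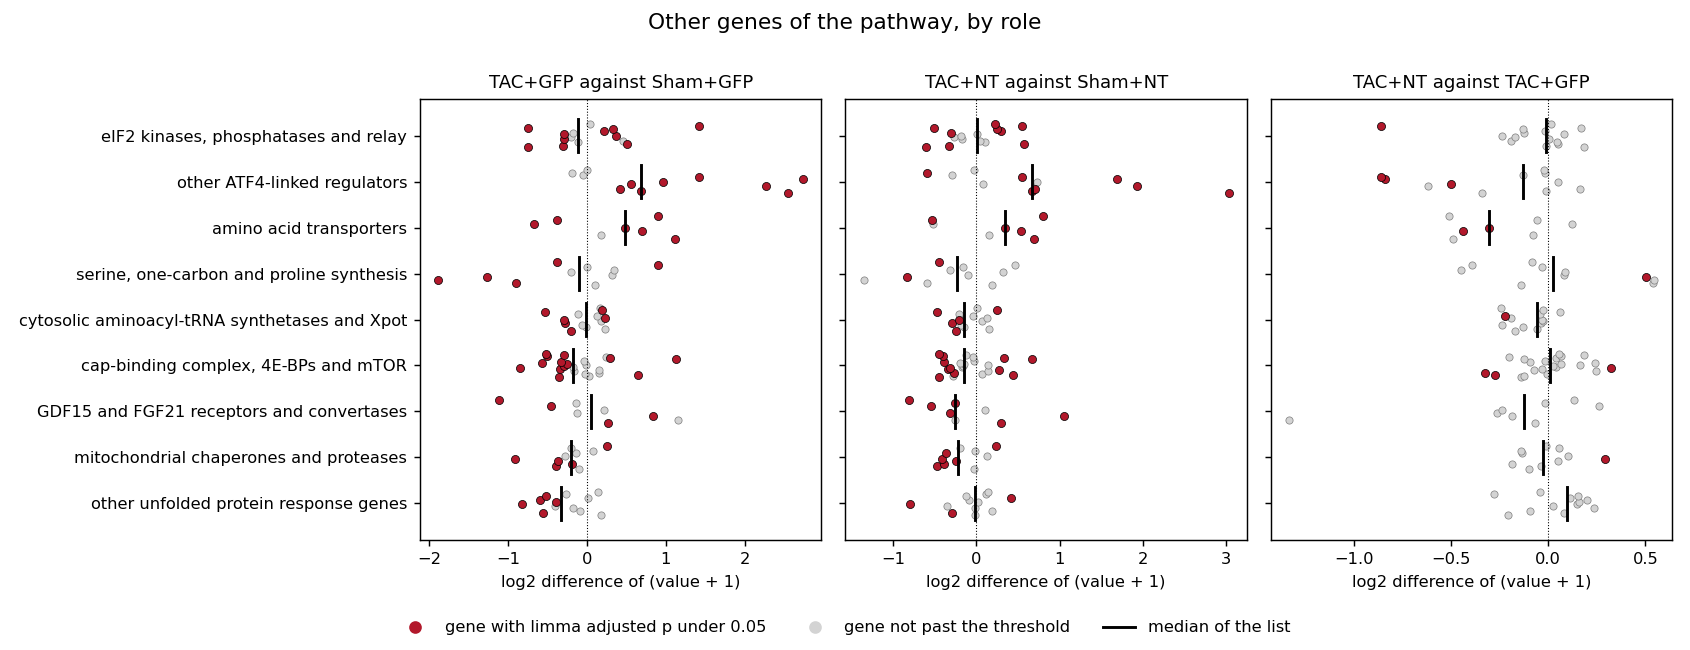
Log2 difference of each tested gene of the 9 lists in 3 comparisons, on the log2(value + 1) scale; points are genes, dark where the limma adjusted p is under 0.05, and the vertical bar is the median of the list. The regulators linked to ATF4 have 8 higher and 0 lower in TAC+GFP against Sham+GFP, and the other unfolded protein response genes have 0 higher and 5 lower. Of all tested genes, 23.3% were higher and 24.8% lower in that comparison. The lists were chosen with earlier results of these data known.

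Of 11 other regulators linked to ATF4, 8 were higher and none was lower in TAC+GFP against Sham+GFP, with a median log2 difference of 0.68, where 23.3% of all tested genes were higher. In TAC+NT against Sham+NT 6 were higher and 1 was lower, with a median of 0.67, where 16.1% of all tested genes were higher. This list was chosen with earlier results of these data known, so both counts are descriptions. Ppp1r15a is counted here and also in the list of eIF2 kinases and phosphatases. Atf3, a stress-induced repressor of transcription, stood at 315, 343, 244 and 323 in TAC+NT and 498, 607, 247 and 295 in TAC+GFP, against 33.2 and 39.8 in Sham+NT and 67.4, 80.3 and 50.8 in Sham+GFP. Every TAC sample lay above every sham sample. It rose by 2.55 in TAC+GFP and 3.03 in TAC+NT over sham of the same vector (limma adjusted p = 3.27e-06 and 2.07e-05). Ddit4, which encodes the mTORC1 inhibitor REDD1, rose by 2.27 and 1.93 in the same comparisons (limma adjusted p = 7.66e-05 and 0.00188).

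Nupr1 and Ppp1r15a were lower in TAC+NT than in TAC+GFP in all 26 alternatives. Nupr1, a small stress-induced chromatin protein, stood at 124, 133, 147 and 91.7 in TAC+NT and 205, 254, 235 and 191 in TAC+GFP, against 33.5 and 41.2 in Sham+NT and 33.8, 34.5 and 28.0 in Sham+GFP. TAC+NT lay between TAC+GFP and both sham groups, with no overlap. It rose by 2.74 in TAC+GFP over Sham+GFP (limma adjusted p = 6.82e-08) and by 1.69 in TAC+NT over Sham+NT (limma adjusted p = 4.38e-05), and TAC+NT differed from TAC+GFP by -0.84 (-1.17 to -0.52, limma adjusted p = 0.00705). Ppp1r15a, which encodes the phosphatase subunit GADD34 that restores eIF2alpha, stood at 540, 635, 611 and 621 in TAC+NT and 1149, 1377, 885 and 1010 in TAC+GFP, against 400.3 and 420 in Sham+NT and 376, 430.1 and 419 in Sham+GFP. It too placed TAC+NT between TAC+GFP and the sham groups. It rose by 1.42 in TAC+GFP over Sham+GFP (limma adjusted p = 7.15e-07) and by 0.55 in TAC+NT over Sham+NT (limma adjusted p = 0.00681), and TAC+NT differed from TAC+GFP by -0.86 (-1.09 to -0.63, limma adjusted p = 0.00103). The interactions, -1.05 for Nupr1 and -0.87 for Ppp1r15a, had limma adjusted p of 0.138 and 0.0870. They passed the threshold in 1 and 4 of the 25 alternatives that give an interaction. The only other gene of this list called between the TAC groups was Ero1l, an oxidase of protein folding, at -0.50 (limma adjusted p = 0.0162), a call that held in 22 of 26 alternatives.

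Upstream of ATF4, the list of eIF2 kinases, phosphatases and their relay was divided, with 5 of 15 higher and 5 lower in TAC+GFP and 5 higher and 4 lower in TAC+NT, each against its sham group. The mitochondrial relay genes fell in TAC+GFP: Dele1 by 0.75 and the protease gene Oma1 by 0.74 on the log2 scale (limma adjusted p = 8.31e-07 and 1.71e-05). In TAC+NT against Sham+NT they fell by 0.60 and 0.50 (limma adjusted p = 7.77e-05 and 0.00244). Eif2ak2, the kinase PKR that senses double-stranded RNA, rose by 0.51 in TAC+GFP and 0.57 in TAC+NT (limma adjusted p = 0.00717 and 0.0130).

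Among amino acid transporters 7 of 9 could be tested, and 4 were higher and 2 lower in TAC+GFP, 4 higher and 1 lower in TAC+NT, against sham. Slc7a5, the large neutral amino acid transporter LAT1, rose by 0.90 and 0.80 (limma adjusted p = 0.00129 and 0.0116), and Slc1a4, which carries serine and alanine, rose by 1.12 and 0.70 (limma adjusted p = 0.00011 and 0.0144). Slc6a9 went the other way and fell by 0.67 in TAC+GFP (limma adjusted p = 0.0228). Slc38a2, the glutamine transporter SNAT2, and Slc3a2, the partner chain of LAT1, were lower in TAC+NT than in TAC+GFP, with log2 differences of -0.44 and -0.31 (limma adjusted p = 0.0312 and 0.0290), each in 18 of 26 alternatives.

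In the list of serine, one-carbon and proline synthesis, 1 of 10 was higher and 4 were lower in TAC+GFP, and 0 were higher and 2 lower in TAC+NT, against sham. Pycr1, a proline synthesis enzyme, rose by 0.90 in TAC+GFP (limma adjusted p = 0.00463). Cth, with the largest difference of the list in that comparison, fell by 1.88 (limma adjusted p = 0.0188), and Aldh1l2 fell by 0.89 (limma adjusted p = 0.00168). Gpt2, the mitochondrial alanine aminotransferase, fell by 1.27 in TAC+GFP and by 0.82 in TAC+NT (limma adjusted p = 2.21e-06 and 0.000669), and was 0.50 higher in TAC+NT than in TAC+GFP (limma adjusted p = 0.0195, past the threshold in 22 of 26 alternatives). Shmt2, the mitochondrial enzyme that feeds MTHFD2, fell by 0.38 in TAC+GFP and by 0.44 in TAC+NT (limma adjusted p = 0.000833 and 0.00171). Of 13 genes for cytosolic tRNA synthetases and the tRNA exporter Xpot, 2 were higher and 4 lower in TAC+GFP, and 1 was higher and 4 lower in TAC+NT, against sham. Wars, for tryptophan, fell by 0.53 and 0.47 (limma adjusted p = 2.82e-05 and 0.000695).

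In the cap-binding and mTOR list, to which the 4E-BP paralogs belong, 3 of 22 were higher and 10 lower in TAC+GFP, and 4 higher and 7 lower in TAC+NT, against sham. Rictor, a core part of mTORC2, rose by 1.13 and 0.67 (limma adjusted p = 6.68e-05 and 0.0142). Eif4a1, the helicase that eIF4E recruits through its scaffold, rose by 0.65 in TAC+GFP and by 0.44 in TAC+NT (limma adjusted p = 3.14e-06 and 0.000674). Between the TAC groups Eif4a1 and its cofactor Eif4b were lower in TAC+NT, with log2 differences of -0.28 and -0.33 (limma adjusted p = 0.0167 and 0.00910), in 23 and 25 of 26 alternatives.

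Of 12 other unfolded protein response genes 0 were higher and 5 lower in TAC+GFP, with a median of -0.32, and 1 was higher and 2 lower in TAC+NT, with a median of -0.02, against sham. All tested genes had 24.8% lower in TAC+GFP and 15.8% in TAC+NT. The chaperone gene Hspa5, which encodes BiP, fell by 0.59 in TAC+GFP (limma adjusted p = 6.33e-05), with a difference of -0.09 in TAC+NT (limma adjusted p = 0.539), and Herpud1, a factor of protein disposal at the endoplasmic reticulum, fell by 0.83 in TAC+GFP and 0.80 in TAC+NT (limma adjusted p = 0.000276 and 0.0022). Of 10 mitochondrial chaperones and proteases 1 was higher and 4 lower in TAC+GFP, and 1 higher and 5 lower in TAC+NT. Hspd1, which encodes HSP60, fell by 0.91 and 0.41 (limma adjusted p = 4.24e-07 and 0.00189) and was 0.29 higher in TAC+NT than in TAC+GFP (limma adjusted p = 0.0206), in 20 of 26 alternatives. Among the receptors and convertases of GDF15 and FGF21, 8 of 11 could be tested, and 2 were higher and 2 lower in TAC+GFP, 2 higher and 4 lower in TAC+NT, against sham. Ret, the signalling partner of GFRAL, fell by 1.11 and 0.81 (limma adjusted p = 0.000109 and 0.00601), and Pcsk6, one of the convertases, fell by 0.45 and 0.55 (limma adjusted p = 0.00122 and 0.00176).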

How the data were processed

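Per the labels' protocols, the authors made stranded paired-end libraries of polyadenylated RNA. Per the submitters' processing notes, FastQC 1.0.0, STAR 2.6.1a and Salmon were used with build mm10. What the authors deposited is a signal: gene counts over scale factors that, as the values show, were set apart for the 7 GFP and the 7 JP2NT libraries. They are not whole, so no count model was used.

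Values were rescaled over all 14 libraries by unweighted trimmed means (30% of ratios and 5% of mean levels trimmed), and log2(value + 1) was fitted with limma-trend (limma 3.58.1, R 4.3.3) on 13 samples, using group means and 1 shared spread. The fit had 9 residual and 5.71 prior degrees of freedom and was tested on simulated data. The median SD of log2 values was 0.176 in TAC+NT, 0.158 in TAC+GFP, 0.0835 in Sham+NT and 0.107 in Sham+GFP. Genes reaching 10 in at least 3 samples were tested, 13212 of 18188 above 0, which kept 9 of the 10 members. All tests were two-sided, and p-values were adjusted by Benjamini-Hochberg within a comparison. Eif4ebp1 was left out of counts of calls.

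Sham+NT replicates 1 and 2 differed by 1.61 times the counting variance over genes with at least 1000 reads, against 5.72 to 111 times for all other pairs of a group, and their mean was used as 1 sample. Members and lists were chosen with earlier results of these data known. From each of the 9 lists, the genes named were among the up to 4 with the largest called differences in TAC+GFP against Sham+GFP and the up to 3 in each other comparison, with the Eif4ebp1 paralogs and the 5 genes most like Gdf15 and most like Eif4ebp1. Gfral and Klb were named after their values were seen, and Jph2 as the gene of the vector. Gene positions come from GENCODE M21 and promoters from RefSeq. Among 24972 listed genes, 26 names had been turned into dates.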

Additional observations from a re-analysis of the deposited data

Results flagged for a closer look

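Chac1 in TAC+NT replicate 3 stood at 91.3, far above the other TAC+NT samples at 44.5, 46.4 and 50.5. It was marked because its gap to the nearest sample exceeded the limit of Dixon's test at 95%. The 10 members in the 2 groups of 4 samples gave 20 such checks, and chance marks about 1 in 20. The same library was the highest of its group for Gdf15 (161.3), Trib3 (61.4) and Mthfd2 (65.7), and the lowest for Atf4 (1176), Ddit3 (191) and Asns (37.4).

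Eif4ebp1 moved in opposite directions with overload under the vectors. Its log2 difference was -0.23 in TAC+NT against Sham+NT and 0.82 in TAC+GFP against Sham+GFP, a difference of -1.05, with no overlap of samples in either. The difference was not tested, because the gene was picked for it. Of all tested genes, 25.2% lay lower without overlap in TAC+NT against Sham+NT. In TAC+GFP against Sham+GFP 25.3% lay higher without overlap. Sham+NT has 2 samples, both above Sham+GFP for Eif4ebp1, and TAC+NT overlapped Sham+GFP.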

How the results depend on the processing

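Across 26 alternative settings (another scaling, the values as deposited, other filters and pseudocounts, 14 separate libraries, closest TAC pairs averaged, other spreads, limma without a trend, a replicate block, and leaving out each library), no value of a member that was called changed direction. Atf4 and Mthfd2 passed in all 26 in both overload comparisons. Gdf15 in TAC+GFP against Sham+GFP also passed in all 26, but it entered the test through its TAC samples and had to differ. Leaving out single libraries, at most 4 of the 8 genes were called in TAC+NT against Sham+NT, and 0 to 1 in TAC+NT against TAC+GFP. Without Sham+NT replicate 3, Sham+NT holds 1 sample. Counts of calls from that fit in TAC+NT against Sham+NT and in the interaction are therefore left out. Trib3 in TAC+GFP against Sham+GFP passed in 2 of 26. With only the compared groups in the fit there is no interaction value. Over all tested genes, 812 were called in TAC+NT against TAC+GFP, 1417 with the values as deposited, 412 with a spread per group, 468 without a trend, 181 with only the groups compared and 158 with the closest TAC pairs averaged. Leaving out single libraries gave 270 to 1077, the lowest without TAC+GFP replicate 2, 373 without TAC+GFP replicate 1, 515 and 450 without TAC+NT replicates 1 and 2. In TAC+NT against Sham+NT 4221 were called, and 3420 to 5015 when single libraries other than Sham+NT replicate 3 were left out. The interaction called 10, 127 with 14 separate libraries, 77 with the replicate block, 76 with a spread per group and 6 with no filter. It called 4 with the closest TAC pairs averaged and 0 without a trend. Leaving out single libraries other than Sham+NT replicate 3 gave 3 to 50. Of the 107 list genes, 53 to 70 were called in TAC+GFP against Sham+GFP, 38 to 59 in TAC+NT against Sham+NT and 2 to 21 in TAC+NT against TAC+GFP. The interaction called 0 to 5 of them. The values as deposited moved the median of all genes in TAC+NT against TAC+GFP to -0.08.

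Samples that share a replicate number did not deviate together (correlations of -0.169 to 0.074), and samples correlated best with their own number in 0 of 4 cases in TAC+NT against TAC+GFP, 2 of 3 in TAC+NT against Sham+NT, 1 of 3 in TAC+GFP against Sham+GFP and 0 of 3 in Sham+NT against Sham+GFP. The replicate block, fitted on 14 separate libraries, left the member calls at 3 in TAC+GFP against Sham+GFP, 4 in TAC+NT against Sham+NT and 0 elsewhere.

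Low counts limit Gdf15 in sham samples and Fgf21 throughout. Sham+NT has 2 samples.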

Other observations

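Markers of vessel cells were also counted. Of 5 mural markers, genes of pericytes and smooth muscle, 0 were higher and 3 lower in TAC+NT against Sham+NT, and 0 were higher and 4 lower in TAC+GFP against Sham+GFP (limma, adjusted over all tested genes), where 15.8% and 24.8% of all tested genes were lower. Their summed value was 10989 to 13325 in TAC+NT, 8154 to 10148 in TAC+GFP, 14178 to 15073 in Sham+NT and 13451 to 14498 in Sham+GFP, with TAC+NT between TAC+GFP and both sham groups and no overlap. Between TAC+NT and TAC+GFP, 2 of the 5 were higher and 0 lower, with a median log2 difference of 0.40, where 2.75% of all tested genes were higher. Of 5 endothelial markers, 4 were lower and 0 higher in each overload comparison.

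The summed value of 4 atrial markers was 1017 to 10642 in TAC+NT, 1312 to 5003 in TAC+GFP, 3703 to 6047 in Sham+NT and 467 to 3349 in Sham+GFP. TAC+NT replicate 4 had the highest sum of all samples.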
